A study of Mus musculus with 18 samples.

Results

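Collagens are the secreted triple-helical proteins of connective tissue, and the collagen genes described here were the rows of the expression table whose symbol is Col, a number, the letter a and a number, leaving out Col7a1 and Col17a1. This rule found 42 of 55357 genes, among them 11 fibrillar, 9 network, 9 FACIT, 6 beaded filament, 3 transmembrane and 2 multiplexin collagens and 2 others, Col26a1 and Col28a1. No measured value entered the rule. The samples were back skin of FVB mice aged 6 months, each a library of its own, with 6 wild-type mice (WT1 to WT6), 6 mice labelled N-IKKα (N7 to N12) and 6 labelled C-IKKα (C13 to C18). IKKα, encoded by Chuk, is a protein kinase that acts in NF-kB signalling, and the transgenic mice carry an exogenous form of it in keratinocytes, in the nucleus in N-IKKα mice and in the cytoplasm in C-IKKα mice. WT mice carry neither transgene, and the promoter that drives the transgenes, the founder lines and the sex of the mice are not given in the sources used here. Nothing in the labels says whether any mice were littermates. Chuk ran from 851 to 1267 normalized counts in WT (median 989, n = 6), from 804 to 1050 in N-IKKα (median 1021) and from 853 to 934 in C-IKKα (median 885), so the ranges overlapped and this row does not check the labels. Whether the transgene's reads are counted in that row is not known here.

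A collagen chain is built from repeats in which glycine, the smallest residue, takes 1 position in 3, and a run of such repeats winds with other chains into a triple helix. Fibrillar collagens pack side by side into the banded fibrils that give the dermis its strength, with type I and type III the main ones of skin. Network collagens such as type IV form the sheets of basement membranes, under the epidermis and around hair follicles, vessels and muscle fibres. FACIT collagens carry interrupted helices and sit on the surface of fibrils, type VI forms beaded filaments around cells, and type XXIII, type XIII and type XXV chains are anchored in the cell membrane. Most dermal collagen is made by fibroblasts, while keratinocytes, endothelial and muscle cells add type IV chains.

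The coding sequences set the fibrillar class apart without use of the expression data, and short stretches of 4 of them are shown for that reason. They were read from the GENCODE M21 transcripts, from the longest complete coding sequence of each gene, and codons are numbered from the start codon. Each line gives 30 codons of the sense strand, 5′ to 3′, and capitals mark the glycine codons (GGN) that fall in step with the first codon, 1 codon in 3. The first pair are the first 30 codons of the long runs of Col1a1 (codons 168 to 197) and Col11a1 (codons 527 to 556), the fibrillar chains on which the results below turn. The second pair show where the longest run of Col4a1 (codons 1338 to 1367) and of the FACIT chain Col12a1 (codons 2886 to 2915) ends.
Col1a1: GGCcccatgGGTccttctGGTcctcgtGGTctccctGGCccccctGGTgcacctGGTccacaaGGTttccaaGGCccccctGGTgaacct
Col11a1: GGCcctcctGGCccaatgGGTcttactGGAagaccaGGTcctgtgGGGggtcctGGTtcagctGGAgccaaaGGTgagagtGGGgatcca
Col4a1: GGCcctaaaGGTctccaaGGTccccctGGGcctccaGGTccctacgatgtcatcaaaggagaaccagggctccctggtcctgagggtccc
Col12a1: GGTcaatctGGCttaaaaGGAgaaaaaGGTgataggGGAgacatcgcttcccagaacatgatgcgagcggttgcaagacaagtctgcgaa
In step with the first codon, Col1a1 and Col11a1 kept a glycine codon at 10 of 10 positions, and Col4a1 and Col12a1 at the first 5 and at none of the rest. The longest unbroken run held 338 triplets in both Col1a1 and Col11a1. Over the 11 fibrillar genes it held 216 to 344 triplets (median 338), with the lowest values in Col24a1 (216) and Col27a1 (217). In the other classes the runs were shorter and their ranges overlapped in part, at 39 to 66 triplets in the 9 network genes, 32 to 113 in the 9 FACIT genes, 37 to 87 in the 6 beaded filament genes, 40 to 44 in the 3 transmembrane genes, 30 in both multiplexin genes and 23 to 28 in the 2 others. All 42 members thus held a run of at least 23 triplets.

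Collagen transcripts made up between 0.271% and 2.91% of all counts in a library. Fibrillar genes held 87.8% of the collagen counts, taken from mean counts over the 18 libraries, beaded filament genes 5.64%, network genes 2.80%, FACIT genes 1.66%, multiplexin genes 1.22% and transmembrane genes 0.833%. Libraries with high type I and III counts weigh most in these shares and in the means that follow. By library, Col1a1, Col1a2 and Col3a1 together held from 50.1% to 92.0% of collagen counts. Per kilobase of annotated exon, the mean normalized count was 7705 for Col1a1 and 4105 for Col1a2, the chains of type I collagen, and 3212 for Col3a1, the chain of type III. The next in that order were the type VI genes Col6a1 (598 per kilobase), Col6a2 (295) and Col6a3 (288), which together form the beaded filaments. The type V chains Col5a1 (288) and Col5a2 (272), which set the diameter of type I fibrils, and Col4a2 (252), a chain of every basement membrane, followed. Neighbours from Col6a2 down to Col4a2 in this order were closer to each other than the spread of any of them over libraries.

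Of the 42 genes, 37 passed the filter of 10 normalized counts in 6 libraries. The 5 below it were Col2a1, Col9a1, Col9a2, Col6a4 and Col10a1. Col10a1, the collagen of growth plate cartilage, was listed at 0 in all 18 libraries, which allows up to 3 reads (2.45 to 3.61 normalized counts, depending on the library) if reads of that gene were counted at all. Xist and the proteoglycan genes Aspn, Ogn and Omd, which skin is known to express, were also listed at 0 throughout, and the strand setting of the counting is not given in the sources used here, so a 0 in every library is not read as absence. Col2a1, the fibrillar collagen of cartilage, reached at most 5.84. Col26a1 passed through the libraries in which it was high, reaching 10 in 7 libraries, so a difference for it was partly fixed by the filter.

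Sex and hair state of the libraries, both read from the data and neither in the labels used here, run through the values below. Ddx3y, a gene of the Y chromosome, was between 1536 and 2025 normalized counts in 8 libraries (WT3, WT6, N7, N12, C13, C15, C16 and C17) and between 0 and 44.4 in the other 10, and those with more than 500 were read as male. Xist, the transcript of the inactive X chromosome, was listed at 0 in all 18 libraries, so this reading rests on Y-linked expression alone. In WT1, WT4, N8, N9, N11 and C14 the mean log2 value of a list of hair shaft and root sheath genes was 10.1 to 12.1, against 1.66 to 5.55 in the other 12, and these 6 are called growing-hair libraries. All 6 of them were among the 10 libraries read as female. WT and N-IKKα held 2 male-read libraries each and C-IKKα 4, and growing-hair libraries numbered 2 in WT, 3 in N-IKKα and 1 in C-IKKα. Because these sets were told apart from the data and are no groups of the study, differences between them are given as ranges, medians and counts of genes without overlap, with no p. In bulk tissue, fewer cells of a type and less RNA per cell cannot be told apart. Libraries held 11.1 to 15.7 M counted reads.

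The type I and III genes fell into 2 levels that followed Ddx3y. Col1a1 was at 89764 and 134409 normalized counts in the WT libraries read as male (WT3, WT6), at 141189 and 105618 in those of N-IKKα (N7, N12), and at 60486, 96779, 96736 and 93087 in those of C-IKKα (C13, C15, C16, C17). In the 10 libraries read as female it ran from 4461 (WT5) to 14708 (WT1), with a median of 9402. The lowest male-read library thus held more Col1a1 than the highest female-read one, and the ratio of the set medians was 10.3. Col1a2 ran from 62521 to 145770 (median 92203) against 5808 to 15962 (median 10737), a ratio of 8.59. Col3a1 ran from 36268 to 72762 (median 56596) against 6277 to 19976 (median 8768), a ratio of 6.46. On the scale of log2(normalized count + 1), the differences of medians were 3.36, 3.10 and 2.69, and they ranked 23, 33 and 42 from the top among 17667 genes. Within the male-read set the highest library was 2.33 times the lowest for Col1a1, and within the female-read set 3.30 times.

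**Figure D1:**
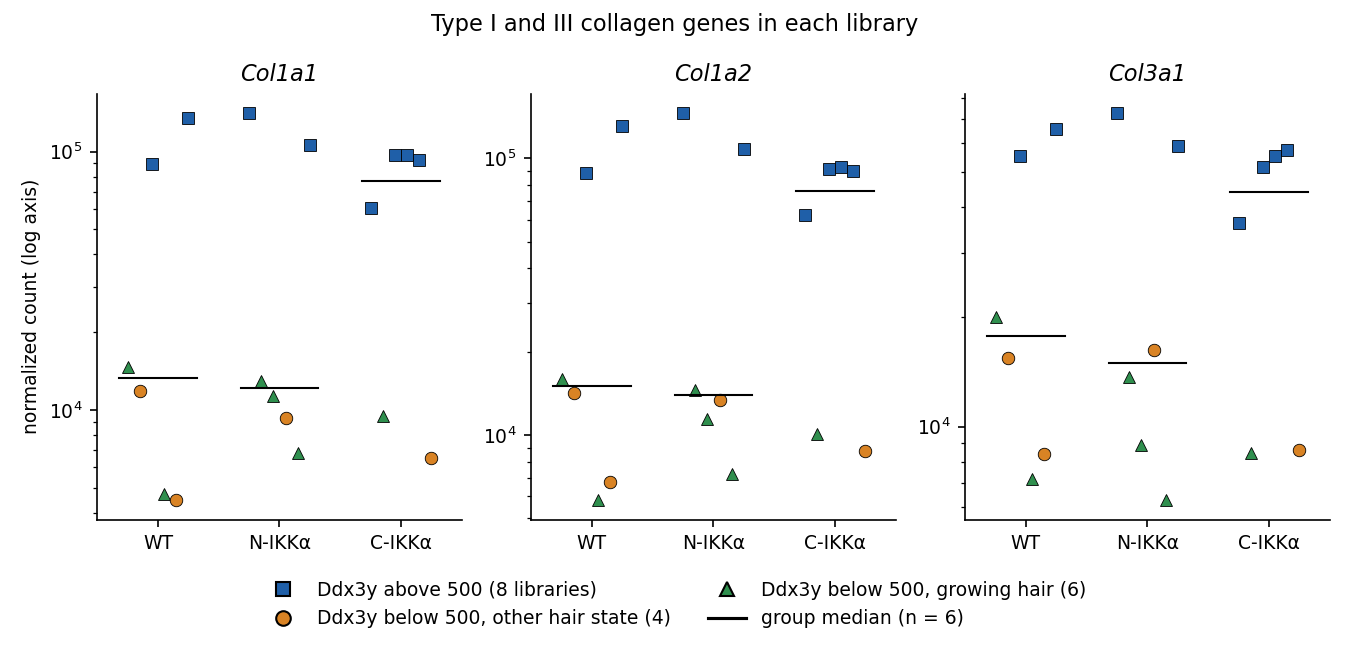
Normalized counts (log axis) of Col1a1, Col1a2 and Col3a1 in the 6 libraries of each group; squares are the 8 libraries with Ddx3y above 500, circles and triangles the 10 below, triangles being growing-hair libraries, and black lines are group medians. All squares lie above all circles and triangles in each panel, and the C-IKKα median is high because 4 of its 6 libraries are squares.

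In all, 5 of the 37 tested members were higher without overlap in the male-read libraries and 0 were lower, against 1.14% of all tested genes higher and 0.368% lower. Besides the 3 above, these were Col5a1, at 2685 to 4653 against 898 to 2399 (ratio of medians 2.22), and Col6a5, a beaded filament chain of the outer dermis, at 237 to 334 against 29.2 to 226 (ratio 2.99). Col5a2 was at 2496 to 4458 against 1172 to 2931 (ratio 2.56), and WT1 was the only female-read library within the male-read range. Col5a1 was chosen after its values were seen, since the rule for named genes does not cover this split. The difference of medians was above 0 for 19 of the 37 members and below 0 for 18 (median 0.10, against 0.00 over all tested genes), so the members did not move as a body. By class, 4 of 10 fibrillar, 1 of 5 beaded filament and none of the 8 network and 7 FACIT genes were higher without overlap.

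Without the growing-hair libraries, 8 against 4 libraries remained. Genes without overlap in the full split, the type I and III genes among them, could not overlap in this part of it. Then 6 members were higher without overlap (1.74% of all tested genes), the same 5 and Col5a2, and 1 was lower (1.32%), the transmembrane chain Col13a1, at 11.9 to 34.1 against 39.3 to 70.4. Col1a1 was at 11832 in WT2, 4461 in WT5, 9308 in N10 and 6527 in C18, and the ratio of medians was 12.2. For Col1a2 it was 8.31 and for Col3a1 4.70, so it was larger for Col1a1 and smaller for Col3a1 than over all libraries. For Col6a5 it was 2.13, against 2.99 over all libraries. Within each genotype on its own, Col1a1, Col1a2, Col3a1, Col5a1, Col5a2 and Col6a5 were higher in the male-read libraries without overlap in WT, in N-IKKα and in C-IKKα. That is 6 members higher in all 3 genotypes (2.38% of all tested genes) and 0 lower (0.991%). For the 5 without overlap over all libraries this was fixed in advance, and of the 6 only Col5a2 could have overlapped. In single genotypes the sets are small and overlap is easily absent. There, 8 members were higher and 3 lower in WT (8.47% and 7.11% of all genes), 13 and 4 in N-IKKα (14.2% and 13.1%), and 8 and 9 in C-IKKα (11.5% and 11.3%).

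The ratio of the type I chains was steadier than their levels. Col1a1 over Col1a2, both in normalized counts and not per length, stayed between 0.659 and 1.06 over the 18 libraries while Col1a1 itself varied 31.7-fold and Col1a2 25.1-fold. The ratio was 0.967 to 1.06 in the male-read libraries and 0.659 to 0.994 in the others, so the ranges met at N9 (0.994). Col3a1 over Col1a1 did not overlap, at 0.490 to 0.620 (median 0.567) in the male-read libraries and 0.785 to 1.89 (median 1.32) in the female-read ones. Not every ratio was steadier than its genes, since Col5a1 over Col1a1 varied 8.26-fold and Col5a1 itself 5.18-fold. Type I chains were thus a larger part of the type I and III counts where Ddx3y was high. The 3 genes together made up 87.4% to 92.0% of collagen counts in the male-read libraries and 50.1% to 66.4% in the others. The sum of the other 8 fibrillar genes differed less, at 5778 to 9875 against 2791 to 7047 (ratio of medians 1.86).

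The sums of the other classes overlapped between these sets and differed in both directions. The summed network collagens were at 3945 to 5488 normalized counts in the male-read libraries and 3880 to 5249 in the female-read ones (ratio of medians 0.987). The summed FACIT collagens were at 1909 to 2227 against 2167 to 3840 (ratio 0.718), where WT5 was the only female-read library within the male-read range, and the summed beaded filament collagens at 7620 to 11043 against 4957 to 14034 (ratio 1.04). Col26a1 and Col28a1 together were at 30.5 to 51.3 against 35.1 to 145 (ratio 0.344), and all 6 growing-hair libraries are in the second set. The ranges of these 4 sums overlapped. Col6a1, Col6a2 and Col6a3, which assemble with each other, had ratios of medians of 1.27, 1.09 and 0.836. The multiplexins of basement membranes, Col15a1 and Col18a1, had ratios of 1.46 and 0.899.

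**Figure D2:**
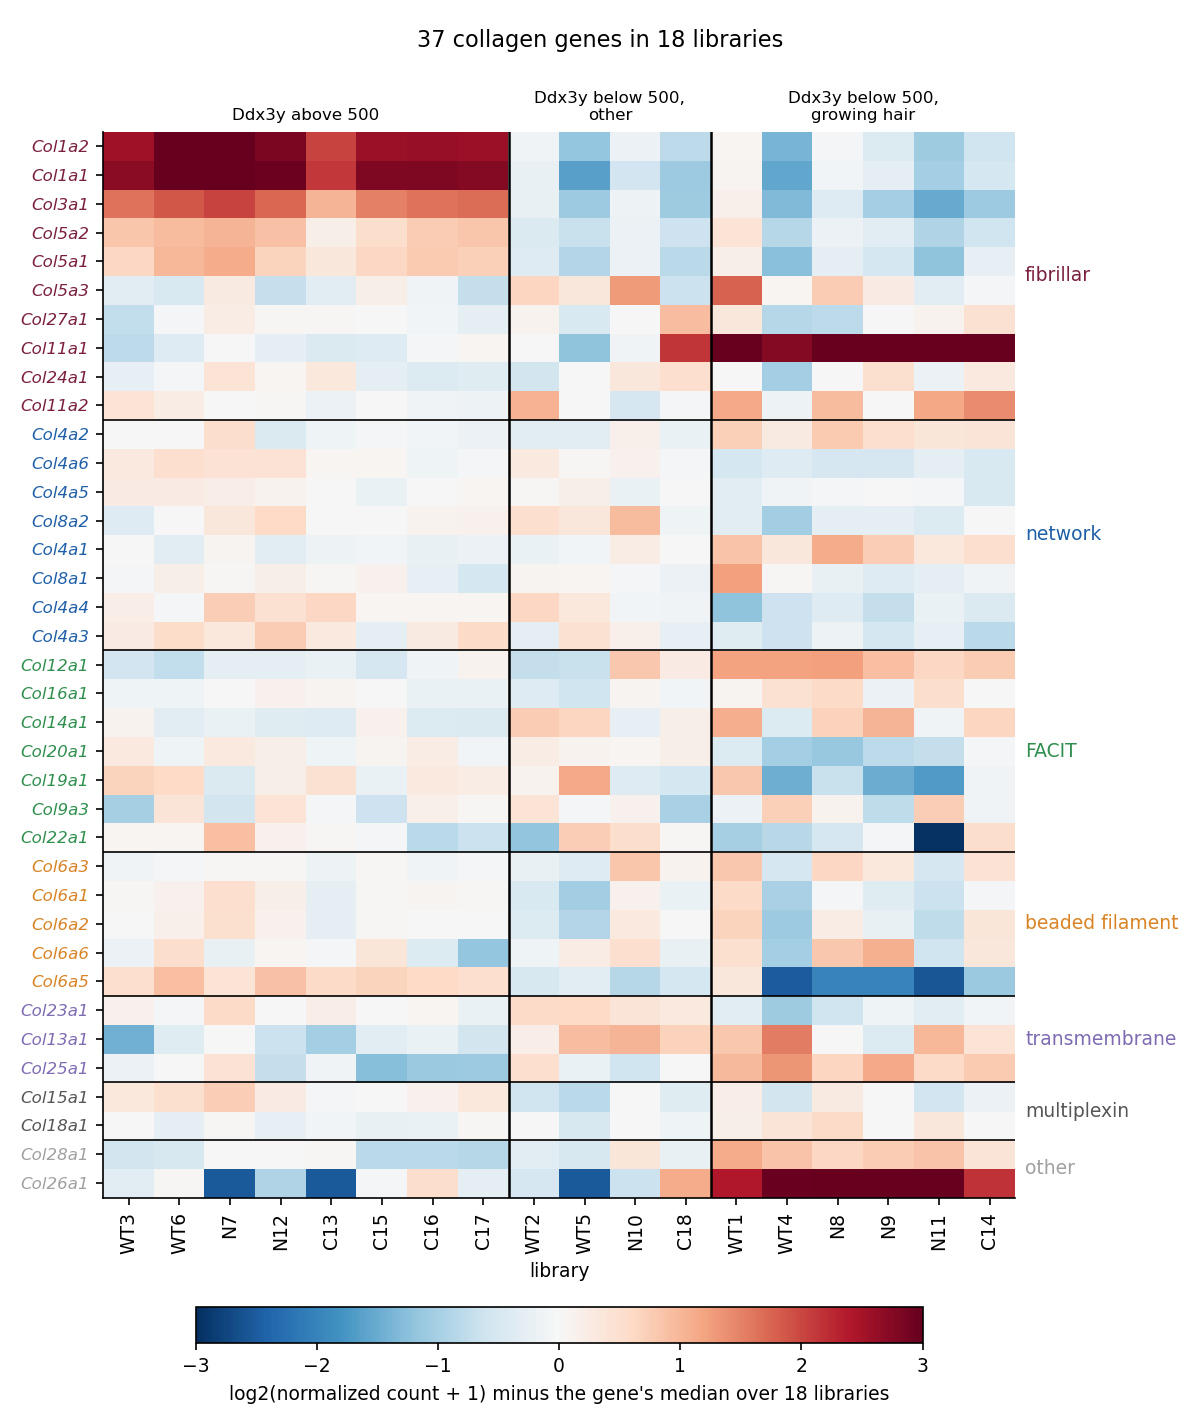
Log2(normalized count + 1) of the 37 tested collagen genes minus each gene's median over 18 libraries, in colour from -3 to 3, with rows by class and columns by Ddx3y and hair state. The top fibrillar rows are red across the first 8 columns, Col11a1 and Col26a1 across the last 6, and the network rows stay pale.

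Genes that process type I collagen were looked at in fixed lists. Of 19 genes of chain folding and hydroxylation, 4 were higher in the male-read libraries without overlap and 0 lower, and of 8 genes of propeptide removal 3 and 0. Of 5 cross-linking oxidases 1 was higher, of 7 tested small leucine-rich proteoglycans 2, of 9 tested collagen receptors 1 and of 12 elastic fibre genes 1, with 0 lower in each list, against the background of 1.14% and 0.368% above. Without the growing-hair libraries, the numbers higher in these lists were 4, 3, 2, 2, 1 and 1 (1.74% of all tested genes). The folding, cross-linking and elastic fibre lists then each held 1 lower gene (1.32%). The median difference went from 0.83 to 0.46 for propeptide removal and from 1.09 to 0.43 for the proteoglycans. Of the genes named next, chosen after their values were seen, Sparc, a collagen-binding matrix protein, was at 43469 to 97193 against 8044 to 17712. Adamts2, which removes the amino-terminal propeptide, was at 4296 to 6190 against 772 to 2885. Lox, which cross-links fibrils, was at 3114 to 4636 against 584 to 2115. These 3 had differences of medians of 2.65, 2.25 and 2.30 on the log2 scale. Serpinh1, the collagen chaperone, overlapped, at 3538 to 7600 against 2368 to 5926. Of 10 fibroblast markers 1, Twist2, was higher without overlap, and the median difference of the list was 0.11. Dcn and Lum, the proteoglycans that are its most abundant genes, overlapped, at 18639 to 31661 against 6600 to 19831 and 6770 to 11554 against 2470 to 8869. Without the growing-hair libraries 2 fibroblast markers were higher and 4 lower without overlap (median difference -0.35). The mean log2 value of the fibroblast list was 10.3 to 10.8 in the male-read libraries and 9.46 to 10.8 in the others. Endothelial (8), smooth muscle and pericyte (8), skeletal muscle (10), keratinocyte (9), Schwann cell (6 tested) and macrophage (6) lists held 0 genes without overlap in this split. Without the growing-hair libraries, 2 of 6 macrophage markers were lower without overlap and all 6 had a negative difference (median -0.42). The part of cell composition in the collagen difference was not tested.

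The genes without overlap between the growing-hair libraries and the others were not those of the Ddx3y split, though Col6a5 differed in both (given below). Of 37 members, 5 were higher without overlap in the 6 growing-hair libraries than in the other 12, against 8.45% of all tested genes, and 2 were lower, against 5.25%. These shares, 5 and 2 of 37, are near the background, so the count says nothing particular about collagens. Col26a1 is among the 5 and reached 10 normalized counts in these 6 libraries and C18 alone, so its difference was fixed in part by the filter. Col11a1, a fibrillar chain best known from cartilage, was at 322 in WT1, 179 in WT4, 628 in N8, 842 in N9, 249 in N11 and 469 in C14, and between 10.5 and 26.8 in 11 of the other 12. The exception was C18 at 116, the library with the highest hair list among the 12. The ratio of medians was 17.9. Col26a1, a small secreted collagen, was at 29.2, 43.4, 68.0, 53.9, 55.3 and 24.5 in the same 6 libraries and at most 11.4 (C18) in the others, where its median of 3.30 lies at the limit of 3 reads.

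Of the other genes that did not overlap, Col28a1, a collagen with von Willebrand domains known from peripheral nerve, was at 64.5 to 107 (median 87.0) against 26.8 to 63.4 (median 37.2). Col25a1, a transmembrane chain, was at 49.0 to 82.2 (median 60.4) against 12.9 to 46.4 (median 28.3). Col4a1 was at 425 to 737 (median 527) against 271 to 397 (median 314), a ratio of 1.68. All 5 genes were higher in the growing-hair libraries. Lower were the basement membrane chains Col4a4, at 113 to 225 (median 181) against 241 to 434 (median 286), and Col4a6, at 531 to 627 (median 550) against 705 to 1082 (median 816).

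**Figure D3:**
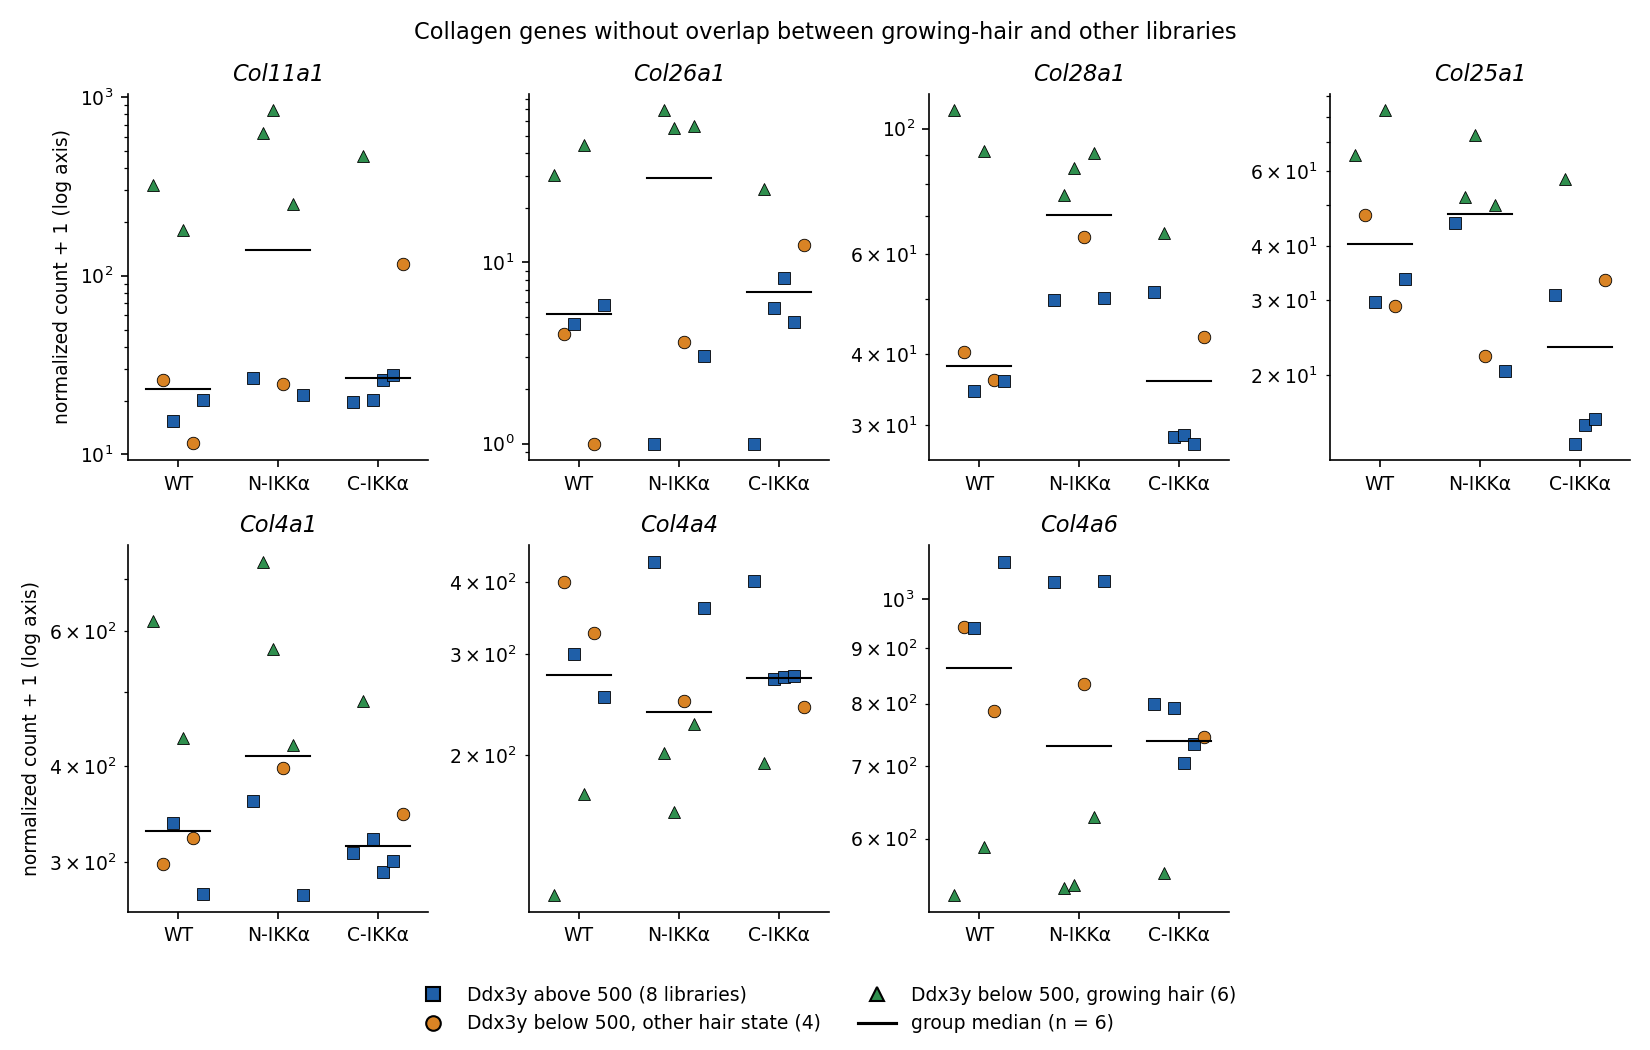
Normalized count plus 1 (log axis) of the 7 collagen genes without overlap between growing-hair and other libraries, by group; triangles are the 6 growing-hair libraries, circles and squares the other 12, and black lines are group medians. Triangles lie above all other points for Col11a1, Col26a1, Col28a1, Col25a1 and Col4a1 and below them for Col4a4 and Col4a6.

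The type I and III genes show why the hair split needs the libraries read as female alone. Over all 18 libraries the growing-hair medians of Col1a1, Col1a2 and Col3a1 differed by -3.14, -3.06 and -2.63 on the log2 scale, though the ranges overlapped. All male-read libraries lay on the other side of that split. Among the 10 female-read libraries, 6 against 4, the growing-hair minus other difference was 0.41 for Col1a1, -0.02 for Col1a2 and -0.42 for Col3a1. Col1a1 was at 4708 to 14708 in the 6 and 4461 to 11832 in the 4, so its difference changed sign and fell within the spread between libraries. The differences of Col5a1 and Col5a2 went from -1.02 and -1.11 to 0.20 and 0.06. That of Col6a5 went from -2.51 to -1.51 and kept its sign. Among the female-read libraries Col6a5 was at 29.2 to 226 in the growing-hair ones and 97.7 to 141 in the others. The overlap came from WT1 (226), and the next growing-hair library was C14 (81.6).

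All growing-hair libraries are female-read, so the 7 genes without overlap could not overlap among the female-read libraries. Only the size of their differences could change, and other genes could join them. There 6 members were higher without overlap (13.0% of all tested genes), the 5 above and Col4a2, and 4 were lower (9.65%), namely Col4a4, Col4a6, Col20a1 and Col23a1. Col11a1 differed by 3.93 on the log2 scale, Col26a1 by 3.69, Col28a1 by 1.08, Col25a1 by 0.98, Col4a2 by 0.70 and Col4a1 by 0.66. Some overlapping genes did not keep their difference. Col13a1 went from 0.86 to -0.21, and Col5a3 and Col14a1, chosen after their values were seen, went from 0.38 to -0.33 and from 0.90 to 0.26. Col20a1, a FACIT chain, was at 120 to 255 against 275 to 309, and Col23a1, the most abundant transmembrane chain, at 565 to 1132 against 1450 to 1802. Within each genotype on its own, the same 5 genes were higher in the growing-hair libraries in all 3 (11.3% of all tested genes), and Col4a3, Col4a4 and Col4a6 were lower in all 3 (8.26%). For the 7 genes this followed from their lack of overlap over all libraries, and only Col4a3 was added. In single genotypes, 9 members were higher and 6 lower in WT (23.5% and 21.5% of all genes), 6 and 13 in N-IKKα (26.9% and 26.9%), and 12 and 6 in C-IKKα (25.7% and 25.8%), where C14 is the only growing-hair library.

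The other fibrillar and FACIT genes mostly overlapped. Col12a1, the FACIT chain with the highest count, was at 1095 to 1679 (median 1486) in the growing-hair libraries and 427 to 1242 (median 585) in the others, and N10 (1242) was the only library of the 12 within the higher range. Col16a1 was at 702 to 1179 against 521 to 865, and Col14a1 at 368 to 1044 against 358 to 824. Both overlapped. Col19a1 was at 10.4 to 64.5 against 24.7 to 80.6, where WT1 (64.5) stood apart from the other growing-hair libraries, which reached 33.5 at most. Col11a2, the partner chain of Col11a1, chosen after its values were seen, was at 24.0 to 73.4 against 18.5 to 56.4. The summed FACIT collagens ran from 2916 to 3840 in the growing-hair libraries and from 2167 to 2862 in the 4 other female-read ones, without overlap. Col12a1 alone had medians of 1486 and 648 there, and the FACIT genes did not rise as a class. Of 7 tested, 3 differences were above 0 and 4 below (median -0.05), with 0 higher and 1 lower without overlap. The summed network collagens ran from 4050 to 5249 against 3880 to 4724, with overlap. The summed fibrillar collagens ran from 20489 to 57694 against 22835 to 45596, also with overlap.

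The type IV genes lie as head-to-head pairs on opposite strands, and the 3 pairs did not move alike. Col4a1 and Col4a2, which form the common network, were both higher in the growing-hair libraries among the female-read ones. Col4a3 and Col4a4 were both lower, at 13.9 to 22.4 against 20.2 to 35.1 for Col4a3, where the ranges overlapped. Of the X-linked pair, Col4a6 was lower without overlap, and Col4a5 was at 460 to 623 against 551 to 708, with overlap. In the RefSeq table the start sites of Col4a1 and Col4a2 are 21 bases apart on chromosome 8 (GRCm38.p6), so windows of 250 bases before to 50 after each start share 78 bases. Col4a1 over Col4a2 ran from 0.167 to 0.284 over 18 libraries, in normalized counts. Col4a5 over Col4a6 ran from 0.826 to 1.15 in the growing-hair libraries and from 0.661 to 0.9004 in the 4 other female-read ones.

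**Figure D4:**
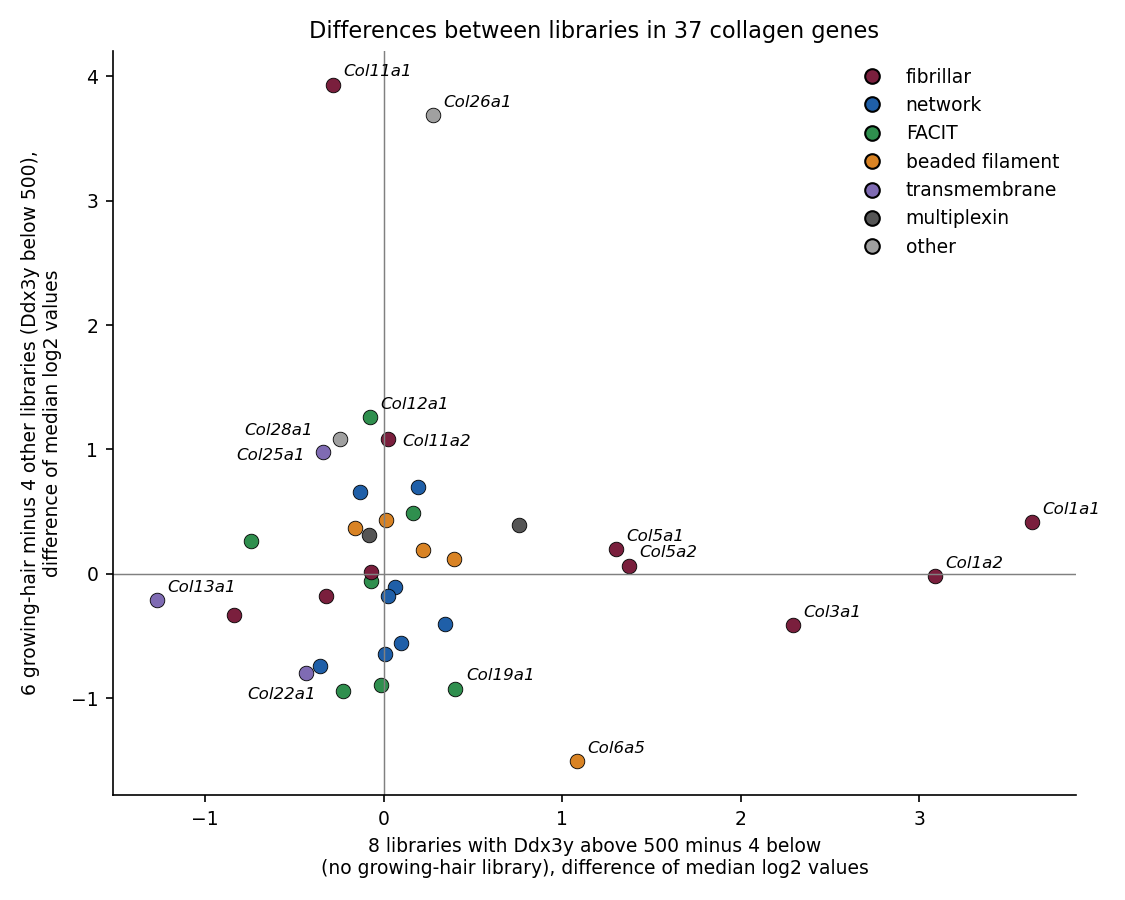
Difference of median log2 values for 37 collagen genes between 8 libraries with Ddx3y above 500 and 4 below (x axis, no growing-hair library) and between 6 growing-hair and 4 other libraries, all with Ddx3y below 500 (y axis); the 4 libraries are shared by both axes. Col1a1 (3.63, 0.41) and Col1a2 (3.09, -0.02) lie far along the x axis, Col11a1 (-0.29, 3.93) and Col26a1 (0.28, 3.69) far along the y axis.

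Genes of other cell types moved with the growing-hair libraries. Among the female-read libraries, where 13.0% of all tested genes were higher and 9.65% lower without overlap, 3 of 7 tested dermal papilla markers were higher without overlap (Corin, Hhip and Rspo2, chosen after their values were seen), with Corin at 130 to 337 against 11.1 to 81.7. Of 10 fibroblast markers 4 were lower without overlap and 0 higher, with Dcn at 6600 to 11283 against 15194 to 19831. The mean log2 value of the fibroblast list was 9.46 to 10.5 against 10.6 to 10.8. Lower without overlap were also 2 of 8 endothelial, 2 of 8 smooth muscle and pericyte, 2 of 9 keratinocyte, 2 of 6 tested Schwann cell and 1 of 6 macrophage markers, with 0 higher in each list. All 8 endothelial and all 6 macrophage markers had a negative difference, with medians of -0.69 and -1.24. So had all 9 tested adipocyte markers (median -1.12) and 9 of 10 skeletal muscle markers (median -1.05), with 0 without overlap in either list. Of 8 cartilage markers 4 were tested and 0 of them differed without overlap, and Ucma was listed at 0. Of the collagen-related lists, 4 of 7 tested small leucine-rich proteoglycans and 3 of 8 propeptide genes were lower without overlap, and Adamts3 was higher, at 29.2 to 67.8 against 8.80 to 28.5. Of 9 tested receptors, the integrin chains Itga1 and Itga10 were higher and Itga2 lower. The part of these cell types in the collagen differences was not tested.

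Windows before the start sites are shown for genes near the ends of these patterns, except Col1a1, the furthest out in the Ddx3y split, which had no matched window. They belong to Col1a2 and Col3a1, which were high where Ddx3y was high, and Col11a1, which was high in growing-hair libraries. Each is the 250 bases before the RefSeq start on the sense strand, 5′ to 3′, in GRCm38.p6 coordinates, with capitals for the TATA box letters TATAAA, the CCAAT box letters CCAAT and the GC box letters GGGCGG, on either strand. They are Col1a2 at chr6:4505368-4505617 and Col3a1 at chr1:45311288-45311537 and Col11a1 at chr3:114030290-114030539, all on the plus strand.
Col1a2: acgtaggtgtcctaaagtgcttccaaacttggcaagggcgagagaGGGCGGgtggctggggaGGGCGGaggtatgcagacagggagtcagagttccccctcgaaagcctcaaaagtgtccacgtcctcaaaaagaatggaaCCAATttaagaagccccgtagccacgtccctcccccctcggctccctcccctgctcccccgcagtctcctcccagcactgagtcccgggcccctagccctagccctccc
Col3a1: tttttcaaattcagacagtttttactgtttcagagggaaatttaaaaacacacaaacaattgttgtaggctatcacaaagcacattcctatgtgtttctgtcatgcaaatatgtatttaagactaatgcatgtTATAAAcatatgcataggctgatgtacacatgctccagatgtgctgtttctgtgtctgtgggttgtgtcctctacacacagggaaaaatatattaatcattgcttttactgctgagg
Col11a1: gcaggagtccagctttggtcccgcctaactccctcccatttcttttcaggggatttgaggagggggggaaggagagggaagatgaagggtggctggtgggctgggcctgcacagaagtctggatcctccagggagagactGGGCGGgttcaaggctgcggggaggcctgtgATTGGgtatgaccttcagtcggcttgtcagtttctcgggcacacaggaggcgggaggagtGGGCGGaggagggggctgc
Col1a2 and Col11a1 each held 1 CCAAT and 2 GGGCGG matches and no TATAAA, and Col3a1 held 1 TATAAA and neither of the others. The motifs do not overlap each other in these windows. Of all 32851 windows of this length, 12.4% held TATAAA, 33.9% CCAAT and 32.7% GGGCGG on either strand. The table matched 33 members with 36 windows, of which 4 held TATAAA, 11 CCAAT and 21 GGGCGG. These are matches of letters and no measure of binding, and genes with unlike patterns here (Col1a2 and Col11a1) held the same matches.

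Whether nuclear or cytoplasmic IKKα changed collagen expression is the comparison the study's groups set up. No collagen gene passed an adjusted p of 0.05 in limma (all 18 libraries, Benjamini-Hochberg over 17667 genes) in any contrast. In N-IKKα against WT, 0 of 37 members were called (0.00566% of all tested genes) and 2 had an unadjusted p below 0.05 (731 of all 17667 genes). In C-IKKα against WT the counts were 0 called (0.345% of all tested genes) and 2 (1012 of all 17667 genes). In N-IKKα against C-IKKα they were 0 (0.430% of all tested genes) and 1 (2059 of all 17667 genes). By edgeR and by DESeq2 on recovered reads, 0 members were called in any contrast as well, with 3, 2 and 1 at an unadjusted p below 0.05 by either tool. Over all 17667 genes the latter counts were 894, 1074 and 2221 by edgeR and 1070, 1269 and 2661 by DESeq2. The median log2 fold change of the members was 0.09, 0.07 and 0.12 in the 3 contrasts, against 0.01, 0.00 and 0.01 over all tested genes. Signs were mixed, with 24, 20 and 25 of 37 above 0, and depended on the libraries. In N-IKKα against WT, 17 of 37 were above 0 without N7 (median -0.06), against 51.0% of all tested genes. Without the growing-hair libraries, which leaves 3 N-IKKα and 4 WT libraries, 29 of 37 were above 0 (median 0.24), against 53.3% of all tested genes. There 9 members had an unadjusted p below 0.05 by limma, against 1231 of 17667 genes, and 0 were called. In the male-read libraries alone (2 WT, 2 N-IKKα and 4 C-IKKα), 33 of 37 were above 0 in N-IKKα against C-IKKα (median 0.25). Of all tested genes, 51.0% were above 0 in that fit. There 7 members had an unadjusted p below 0.05 by limma, against 1254 of 17667 genes, and 0 were called. In C-IKKα against WT, 12 of 37 were above 0 in these libraries (median -0.11), against 48.9% of all tested genes. The contrasts share groups, so they are not independent.

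The abundant fibrillar genes had wide limits. Col1a1 ran from 4461 to 134409 (median 13270, n = 6) in WT, from 6824 to 141189 (median 12133) in N-IKKα and from 6527 to 96779 (median 76787) in C-IKKα, ranges that overlap nearly whole. Its log2 fold change was 0.28 (SE 1.03) in N-IKKα against WT, 1.04 (SE 1.03, adjusted p 0.985 by limma) in C-IKKα against WT and -0.76 (SE 1.03) in N-IKKα against C-IKKα. With Ddx3y status as a covariate the SE was 0.27 for the first and 0.29 for the others, and the values became 0.28, -0.18 and 0.45. In C-IKKα against WT, Col1a2 went from 0.89 to -0.23 and Col3a1 from 0.45 to -0.39. The positive C-IKKα values of the type I and III genes thus went with its 4 male-read libraries and changed sign with the covariate. With it, the 95% limits of Col1a1 were -0.78 to 0.43 in C-IKKα against WT and -0.30 to 0.85 in N-IKKα against WT.

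**Figure D5:**
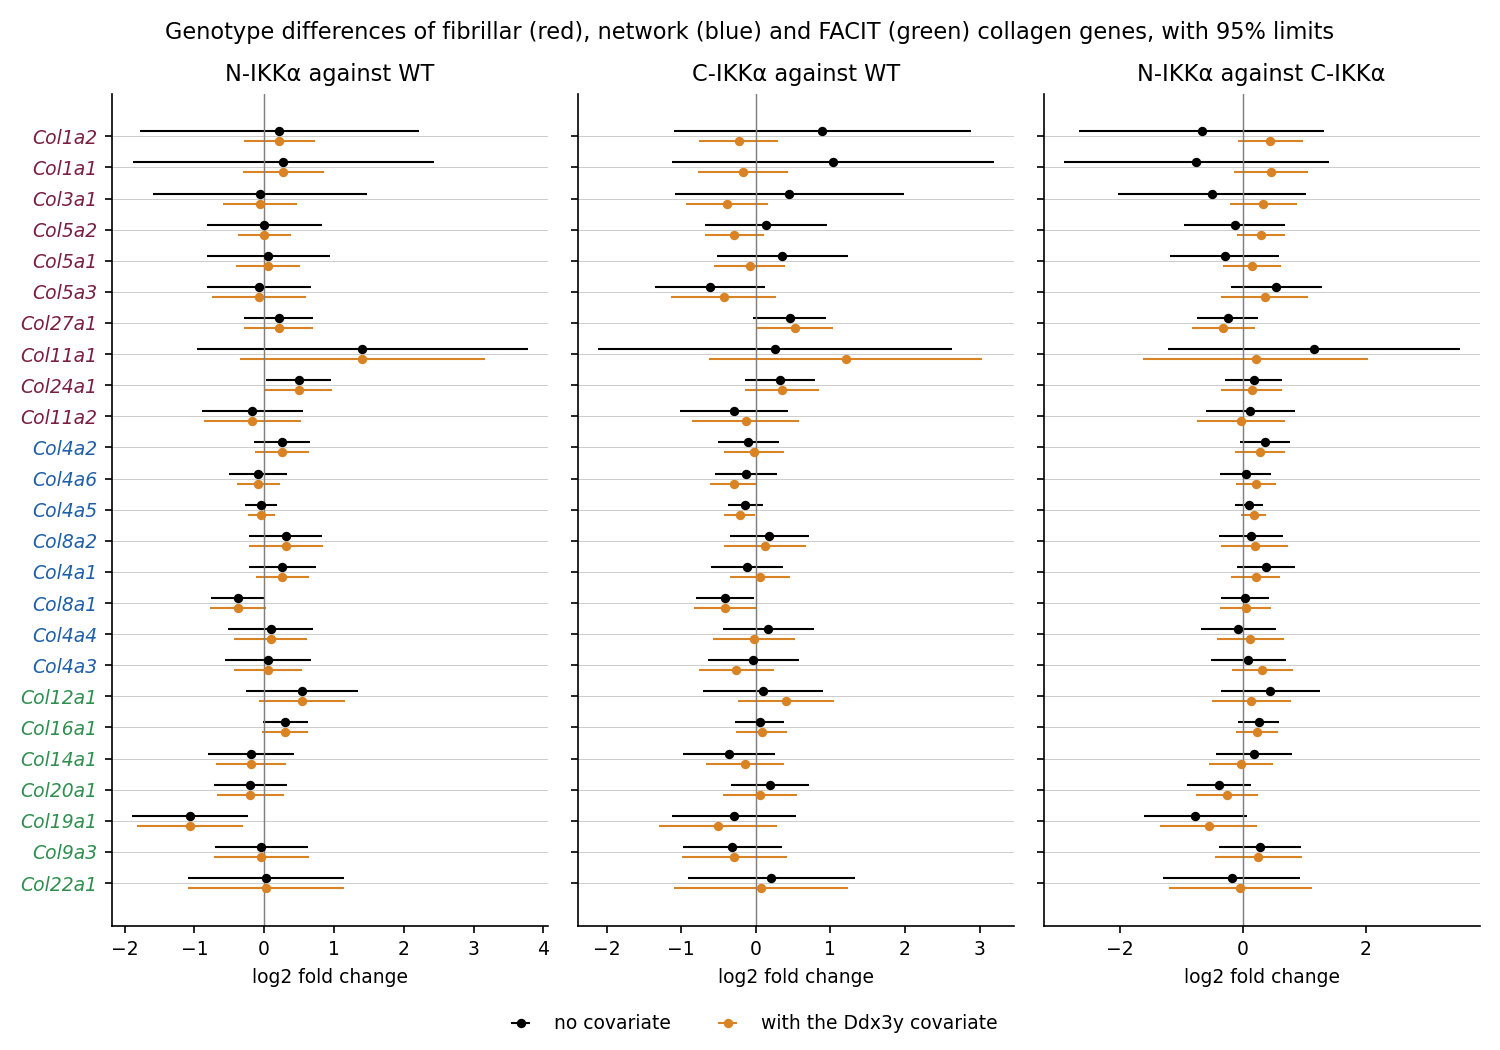
Log2 fold changes with 95% limits of 25 fibrillar, network and FACIT genes in the 3 contrasts, without a covariate (black) and with the Ddx3y covariate (orange), from limma on 18 libraries. For Col1a1, Col1a2 and Col3a1 the limits narrow with the covariate, and in C-IKKα against WT their values move from above 0 to below it.

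The smallest p values were in other genes. In N-IKKα against WT these were Col19a1, a FACIT chain, with a log2 fold change of -1.06 (SE 0.40, adjusted p 0.880 by limma), then Col24a1 at 0.49 and Col8a1 at -0.37. Col19a1 ran from 12.6 to 80.6 in WT (median 56.9) and from 10.4 to 41.0 in N-IKKα (median 24.6), which overlap. In C-IKKα against WT they were Col8a1, a short-chain network collagen of vessels, at -0.41 (SE 0.19, adjusted p 0.835 by limma), Col25a1 at -0.87 and Col27a1 at 0.45. In Col8a1 the highest WT library, WT1 at 642, stood far from the other 5, which ran from 264 to 309. In N-IKKα against C-IKKα they were Col28a1 at 0.81 (SE 0.32, adjusted p 0.396 by limma), Col19a1 at -0.77 and Col6a5 at -1.15. Col28a1 and Col6a5 are genes of the hair and Ddx3y patterns, and N-IKKα held 3 growing-hair and 2 male-read libraries against 1 and 4 in C-IKKα. With the Ddx3y covariate their values were 0.57 and -0.55.

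By class, the median log2 fold change of C-IKKα against WT was 0.34 over 10 fibrillar genes, -0.11 over 8 network genes and 0.05 over 7 FACIT genes, and with the Ddx3y covariate -0.16, -0.12 and 0.06. In N-IKKα against WT the medians were 0.13, 0.07 and -0.04, with and without the covariate, since the male-read libraries are balanced there. Of these 3 classes the network genes had the lowest median SE without the covariate, 0.21, against 0.41 for fibrillar and 0.31 for FACIT genes. For Col4a2 the 95% limits in C-IKKα against WT were -0.50 to 0.31. Of the collagen-related lists (folding, propeptide removal, cross-linking, proteoglycans, receptors and elastic fibre), 0 genes were called in any contrast by limma. The smallest p values of the lists in N-IKKα against C-IKKα included Bmp1, a procollagen protease, at 0.34 (adjusted p 0.380 by limma) and Podn, a proteoglycan, at -1.27 (adjusted p 0.441 by limma).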

How the data were processed

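Bulk RNA of 18 back skin samples was sequenced as paired-end reads from a stranded mRNA kit, per the labels' protocols, and counted with featureCounts on GRCm39, per the submitters' processing notes. Aligner, annotation release, strand setting and scaling tool: not given in the sources used here. Values in the deposited table are a signal, normalized counts by gene and sample. Each library's values came out as whole numbers of reads once divided by that library's smallest step (100% within 0.001 reads), so they were read as counts that the authors scaled by a size factor, and whole reads were recovered. A value of 0 allows up to 3 reads, for counting error only.

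Genes with at least 10 normalized counts in at least 6 libraries were tested on log2(normalized count + 1) with limma 3.58.1 (R 4.3.3, trend, two-sided), with a mean per group over 18 libraries and Benjamini-Hochberg adjustment per contrast. Per the labels, each library came from a separate mouse. The model was checked on simulated counts that gave all genes the same dispersion and held no sex or hair differences, unlike these data. Sets of libraries read from the data (Ddx3y above 500, growing hair) were described without tests. Alternatives were pseudocounts 0.5 and 5, a filter of 50 or none, other scalings (quantile, TMM, median of ratios), a robust prior, recovered reads fitted with edgeR 4.0.16 or DESeq2 1.42.0, only the compared groups, 1 library left out at a time, covariates and subsets. The Ddx3y split, the fit with both covariates and the fits of male-read or female-read libraries alone were chosen after seeing the data.

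Named members were those with the highest counts per class, those with the smallest p per contrast, those without overlap in the hair split, the type IV pairs and genes listed at 0. The members and all lists were chosen with earlier results of these data known. Exon lengths came from GENCODE M21 (GRCm38), matched by identifier for 52081 genes. Up to 6.07% of a member's exon length (Col9a3) overlaps exons on the other strand. Figures were drawn with matplotlib 3.10.9.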

Additional observations from a re-analysis of the deposited data

Results flagged for a closer look

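Among 33 members checked in 3 groups of 6 libraries, 6 of 99 group values had 1 library far from the rest, by Dixon's test at its 95% critical value, on the gap to the nearest library over the group's range. Chance flags about 1 in 20 groups, which is close to this number. In C-IKKα, the growing-hair library C14 was the highest in Col11a1 (469, the next 116), Col4a1 (485, the next 345) and Col4a2 (1966, the next 1445). In WT, WT1, also a growing-hair library, was the highest in Col6a3 (5509, the next 3072) and Col8a1 (642, the next 309). In N-IKKα, N8, a growing-hair library as well, was the lowest in Col27a1 (151, the next 259). All 6 values thus lie in growing-hair libraries, but the members checked were in part chosen on hair state. Col11a1 and Col4a1 were among them for lack of overlap in the hair split, Col4a1 also as a pair member. C14 is the only growing-hair library of C-IKKα, so its place as the highest there followed from that lack of overlap. The part of the hair state in the 6 values was not tested.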

How the results depend on the processing

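No paired analysis was possible because the 3 groups share no replicate numbers. The count of 0 called collagens held in all 3 contrasts under every alternative, with 0 to 0 when 1 library was left out in turn, and the smallest adjusted p of any member was 0.112 (Col19a1 in N-IKKα against WT, without WT4). Of 627 values of 18 named genotype differences under 35 alternatives, 49 changed sign, all uncalled. In the hair split, the higher and lower counts (5 and 2 of 37) became 3 and 2 with a filter of 50, 6 and 4 in female-read libraries, 9 and 6 within WT, 6 and 13 within N-IKKα and 12 and 6 within C-IKKα, and 5 to 6 and 2 to 3 with 1 library left out. Col1a1 reversed, from -3.14 to 0.41, in female-read libraries. In the Ddx3y split, the counts (5 and 0) became 6 and 1 without growing-hair libraries, 8 and 3 within WT, 13 and 4 within N-IKKα and 8 and 9 within C-IKKα, and 5 to 6 and 0 to 1 with 1 library left out (1 lower without N9). TMM scaling gave the same counts in both splits over all 18 libraries. Median-of-ratios scaling did too, but its genotype counts and medians equalled the main ones in every digit, so it was no separate check. The sets within a genotype, of female-read libraries, without growing-hair libraries or with 1 library left out hold fewer libraries. Such sets can gain genes without overlap but cannot lose any, so their counts could only stay or rise. Genes near 3 reads, such as Col26a1, are limited by depth.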
